A study of Mus musculus with 6 samples.

Results

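Kinesins are motor proteins that walk along microtubules using ATP. Some of them build and run the spindle, by pushing its poles apart, crosslinking or shortening microtubules and moving chromosomes, while others carry vesicles, mitochondria or mRNA along the microtubule tracks of the cytoplasm. The oocyte spindle forms without centrosomes, and in the transcriptionally silent full-grown oocyte the motors it needs after nuclear envelope breakdown (NEBD) are made from stored mRNAs by loading them onto ribosomes.

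The kinesin genes were taken from the expression table by symbol, as every gene named Kif or Kifc followed by a number. The rule gave 42 of 25899 genes, 1 of which, *Kif4-ps*, is a pseudogene. By textbook function 16 were classed as spindle kinesins, 15 as transport kinesins and 11 as other, the last being mostly motors of cilia, centrioles or cortical microtubules. The kinetochore motor *Cenpe* and the kinesin-2 subunit *Kifap3* carry other symbols and were read only as partners.

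Lysates of oocytes from aged CD1 mice, called aged females (AF), were divided on a sucrose gradient into a non-polysomal (NP) and a polysomal (P) fraction, and RNA of each was sequenced, with 3 libraries of each fraction. P holds mRNA loaded with several ribosomes, and NP holds mRNA that is free or lightly loaded. The labels give the mice an age of 58 weeks and each sample 200 oocytes, while the study's methods name the mice as ICR and give a lower age. The lysate of each sample was divided into both fractions, so the 6 libraries come from 3 pools of oocytes. How many animals stood behind each pool is not given in the sources used here.

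Both fractions came from oocytes treated alike. The females received 5 IU of PMSG, a gonadotropin that makes follicles grow, and oocytes were collected 46 h later in 100 µM IBMX, which holds them before NEBD. After release they were cultured for 180 min, and 0.1 mg/ml cycloheximide was then given for 10 min to hold ribosomes on their mRNA. Young-female libraries are not analysed here, so the values below compare fractions within aged oocytes and carry no comparison of ages.

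Values are FPKM, fragments per kilobase of exon scaled to the mapped total. FPKM is relative to each library's own total, so it does not give the share of an mRNA that is on polysomes, and fewer contributing oocytes and less RNA per oocyte cannot be told apart. The depth recovered from the steps between low values ran from 1237799 to 18096676 reads in NP and from 163822 to 1549317 in P, although only 56.2% to 62.7% of the low values fell within 0.02 of a whole read. At those depths a 2 kb mRNA would need between 0.0829 and 9.16 FPKM to give 3 reads, the level that a count of 0 still allows, and the highest of these limits was that of P replicate 1. All 12 oocyte markers looked at, such as *Zp3* and *Gdf9*, were above 0 in all 6 libraries, with sums of 13712 to 17340 FPKM across NP and 5902 to 17856 in P. Of 11 granulosa cell markers, 6 were listed at 0 in every library, *Foxl2* and *Fshr* among them, and the summed level was 11.2 to 131 FPKM across NP and 2.28 to 16.5 in P. Highest of the others were *Cyp19a1*, at 7.15, 22.5 and 104 FPKM across NP and 15.4, 0 and 0 in P, and *Nr5a2*. The latter was at 3.37, 6.32 and 26.9 FPKM across NP and 0, 5.71 and 1.18 in P. Of 5 blood markers found, 4 were at 0 throughout and the fifth was seen in NP replicate 1 only, at 0.643 FPKM.

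A shift between fractions is given as the log2 ratio of P over NP, computed on log2(FPKM + 1), which understates the change of low mRNAs. It was tested with limma, with p-values adjusted over the 10578 genes with a mean above 1 FPKM in either fraction and a threshold of 0.1. The smallest p-value that exact permutation of 3 and 3 libraries allows for any one gene is 0.1.

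Of the 42 kinesins, 32 were above 0 in at least 1 library and 14 in all 6. Between 20 and 31 kinesins were above 0 in a library (47.6% to 73.8% of them), compared with 24.1% to 52.2% of all genes. A mean above 1 FPKM was reached by 24 kinesins in NP and by 21 in P, and these 24 were tested. They comprised 12 spindle, 9 transport and 3 other kinesins. The 10 listed at 0 in all 6 libraries were *Kif12*, *Kif19a*, *Kif1a*, *Kif27*, *Kif2b*, *Kif3c*, *Kif4-ps*, *Kif5a*, *Kif6* and *Kifc2*. *Kif1a*, *Kif3c*, *Kif5a* and *Kifc2* among them are known for transport in neurons.

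A pair of motors supplied much of the kinesin signal. *Kif22*, which encodes the chromokinesin Kid that binds chromosome arms, and *Kif17*, a homodimeric kinesin-2 known from dendrites and cilia, were the highest 2 kinesins in each of the 6 libraries and together gave 43.2% to 71.5% of the summed kinesin FPKM. The sum over all kinesins was 1969, 2075 and 1288 FPKM across NP replicates 1 to 3 and 853, 705 and 1404 in P.

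**Figure D1:**
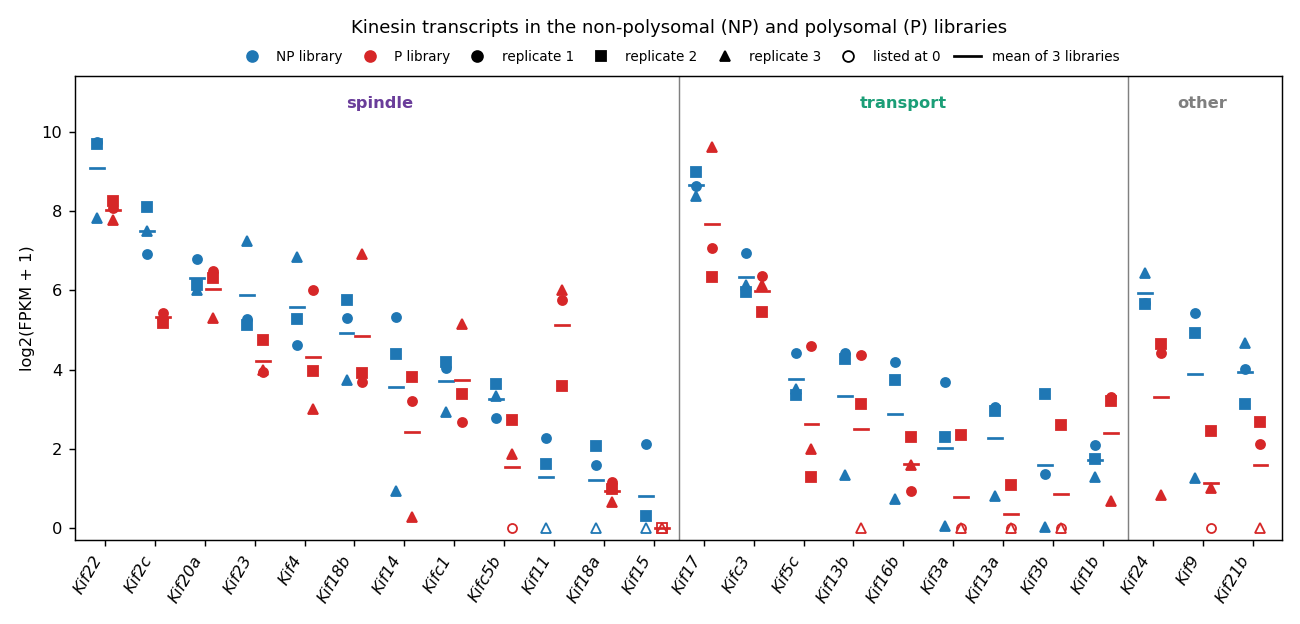
Level of the 24 tested kinesins, as log2(FPKM + 1), with 1 point for each of the 3 NP (blue) and 3 P (red) libraries, shapes for the replicate number, open points for genes listed at 0 and dashes for the mean of 3 libraries on this log scale. *Kif22* and *Kif17* stand highest in their classes, and *Kif11* has all its P points (11.1 to 63.8 FPKM) above its NP points (0 to 3.86 FPKM).

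No kinesin passed the threshold without a pairing of the libraries, among 24 tested, where 1.82% of all genes did (192, of which 2, or 0.0189%, were higher and 190, or 1.80%, lower in P). That split turned on the scaling, with 2 higher and 1 lower after median-of-ratios scaling, 2 and 2 after quantile normalisation and 2 and 5 after scaling to a common FPKM sum. At an unadjusted p under 0.05 there were 3, *Kif11*, *Kif24* and *Kif2c*, and 15.8% of all genes met that level. When the replicate number was added as a block, 668 genes (6.31%) passed, and *Kif11* was the 1 kinesin among them. Under the block 5 genes (0.0473%) were called higher in P and 663 (6.27%) lower.

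*Kif11* encodes Eg5, the tetrameric kinesin-5 that slides antiparallel microtubules and so pushes spindle poles apart. It lies on chromosome 19 (37376403 to 37421859, plus strand, GRCm38). Its level was 3.86, 2.10 and 0 FPKM across NP replicates 1, 2 and 3 (mean 1.98 ± 1.93 SD, n = 3) and 53.2, 11.1 and 63.8 FPKM in P (mean 42.7 ± 27.9 SD, n = 3). Every P library was above every NP library, as was the case for 67 of the genes tested (0.633%), and 2.09% of them were higher in P in all 3 same-numbered pairs, as *Kif11* was. P replicate 2 was the lowest of its P libraries.

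The P mean of *Kif11* was 21.5 times the NP mean, and this fold ran from 14.3 without NP replicate 3 to 40.7 without NP replicate 1. Its log2 ratio was 3.82 (SE 1.22), the 2nd highest of 10578, with a limma adjusted p of 0.146 and of 0.0588 with the replicate block. In the order of genes within a library it stood at rank 1181, 3417 and 1053 in P and at 7293 and 8653 in the NP libraries where it was above 0. Over 21 other ways of processing, the ratio ranged from 2.56 to 5.14 and the adjusted p from 0.0588 to 0.446, so the call was made under the block and under none of the others. Leaving out single libraries moved the ratio between 3.17 and 4.58, the lowest without NP replicate 3.

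**Figure D2:**
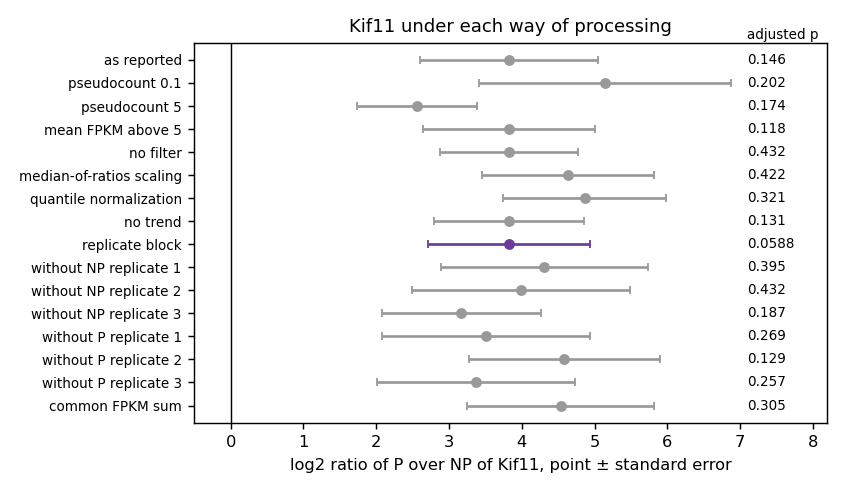
Log2 ratio of P over NP of *Kif11* as reported and under 15 of the 21 other ways of processing (the remaining 6 repeat the leaving out of a library on a fixed set of genes), with bars of 1 standard error and the limma adjusted p beside each point. All points lie between 2.56 and 5.14, and the fit with the replicate block is the 1 setting with an adjusted p under 0.1.

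Stored oocyte mRNAs are known to be recruited to ribosomes through cytoplasmic polyadenylation elements (CPEs), short U-rich motifs close to the 3′ end that the protein CPEB binds. The motifs TTTTAT and TTTTAAT were looked for on the mRNA strand only, in the last 100 bases of the 3′UTR of 1 GENCODE M21 transcript of each gene. Of the 21 tested kinesins whose 3′UTR was that long, 5 held a motif (23.8%), compared with 1646 of 8424 genes (19.5%). The 5 were *Kif11*, *Kif18a*, *Kif9*, *Kifc1* and *Kifc5b*. The windows below show the motif and its neighbouring bases in these and in *Kif22*, the highest spindle kinesin, whose 3′UTR of 62 bases was too short to be counted. Capitals mark the motif, and coordinates are GRCm38. Those of *Kif11* and *Kif22* run to the annotated 3′ end, and the others stop short of it.
Kif11, chr19:37421830-37421859, plus strand: aattttttaaattaaattaTTTTAATtttt
Kif22, chr7:127027731-127027760, minus strand: acgtgttgtgtaaatacagtTTTTATtcca
Kif9, chr9:110525149-110525178, plus strand: gataaaattactTTTTATttcctgtctgaa
Kif18a, chr2:109341699-109341728, plus strand: aatgtgctaataTTTTATtacttggtatat
Kifc1, chr17:33875712-33875741, minus strand: gttgagacatgaTTTTATtgggtgaacaat
Kifc5b, chr17:26932503-26932532, plus strand: agctctaaacggTTTTATtaacttaacggt

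The first base of the motif nearest the end lay 11 bases from the annotated 3′ end in *Kif11*, 10 in *Kif22*, 19 in *Kif9*, 37 in *Kif18a*, 71 in *Kifc1* and 69 in *Kifc5b*, and *Kif9* held 2 motifs in its last 100 bases, of which the window shows the nearer. A polyadenylation signal, AATAAA or ATTAAA, lay in the last 40 bases of *Kif11*, *Kif18a*, *Kifc1* and *Kifc5b*. Neither *Kif22* nor *Kif9* held one there. These 6 genes did not move alike. *Kif11* stood at a log2 ratio of 3.82 and *Kif9*, described below, at -2.73, with a motif in both. The median ratio was -0.29 over the 5 kinesins with a motif and -1.19 over the others, and over all genes it was -0.85 and -1.05. A match to these letters is a description of the annotated end and does not show that the end is used or bound in oocytes.

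The chromokinesins carry chromosomes away from the poles and shape the anaphase midzone. *Kif22* was at 855, 829 and 226 FPKM across NP (637 ± 356 SD, n = 3) and 269, 304 and 217 in P (263 ± 43.9). It ranked between 85th and 524th of all genes in the 6 libraries. The NP and P libraries overlapped, since NP replicate 3 lay below P replicates 1 and 2, and the log2 ratio of -1.06 was not past the threshold (limma adjusted p = 0.428). *Kif4*, which organises chromosomes and the central spindle, was at 23.6, 37.8 and 113 FPKM across NP and 63.1, 14.8 and 7.02 in P, so the fractions overlapped. Exons of *Pdzd11* on the opposite strand cover 15.1% of the exon length of *Kif4*, and the library preparation did not mark the strand. *Pdzd11* stood at 23.9 to 238 FPKM, and its part in the *Kif4* values was not tested.

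The kinesin-13 motors of the spindle do not walk but take microtubule ends apart, which corrects wrong attachments and sets spindle length. *Kif2c*, encoding MCAK at centromeres, was at 119, 275 and 179.6 FPKM across NP (191 ± 78.4) and 41.97, 35.3 and 40.7 in P (39.3 ± 3.52). All 3 P libraries lay below the 3 NP libraries, and the NP mean was 4.86 times the P mean. The log2 ratio of -2.18 did not pass the threshold either way (limma adjusted p = 0.203, and 0.145 with the block), and it ranged from -2.47 to -1.18 over the other ways of processing. The other spindle members of this family were low, with *Kif2a* at 0 to 1.26 FPKM across NP and 0 to 0.249 in P and *Kif2b* listed at 0.

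The kinesin-8 motors shorten microtubule plus ends, KIF18A to calm chromosome movement at the metaphase plate and KIF18B on astral microtubules. *Kif18a* was at 2.05, 3.19 and 0 FPKM across NP and 1.24, 0.980 and 0.591 in P, a level that rested on about 2, 11 and 9 recovered reads in P. *Kif18b* was at 38.7, 53.2 and 12.4 FPKM across NP (34.8 ± 20.7) and 11.96, 14.2 and 121 in P (49.0 ± 62.1). P replicate 3 alone set its P mean, which was 13.1 FPKM without that library. The log2 ratio of *Kif18b* was -0.09.

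The kinesin-6 and kinesin-3 motors of cytokinesis work at the central spindle. *Kif20a*, encoding MKLP2, which brings Aurora B to the midzone, was at 109.8, 69.4 and 63.2 FPKM across NP (80.8 ± 25.3) and 88.4, 78.7 and 38.6 in P (68.6 ± 26.4). The fractions overlapped throughout, and exons of *Cdc23* on the opposite strand cover 29.3% of its exon length. *Kif23*, encoding MKLP1 of the centralspindlin complex, was at 38.0, 34.2 and 151 FPKM across NP (74.3 ± 66.2) and 14.3, 26.1 and 14.9 in P (18.4 ± 6.66). All P libraries lay below the NP libraries, but NP replicate 3 was far above the other NP libraries, and the log2 ratio of -1.66 was not past the threshold (limma adjusted p = 0.409).

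*Kif14*, a kinesin-3 of the midbody, was at 39.3, 20.2 and 0.940 FPKM across NP and 8.35, 13.1 and 0.221 in P. In both fractions replicate 3 was the lowest, and P was below NP in each same-numbered pair. *Kif20b*, another kinesin-6, was at 0 to 1.02 FPKM across NP and 0.116 to 1.10 in P and was not tested. *Kif15*, which backs up Eg5 in keeping the spindle bipolar, was at 3.36, 0.241 and 0 FPKM across NP and listed at 0 in all 3 P libraries. For its length, 3 reads would be 1.66, 0.238 and 0.176 FPKM in P replicates 1 to 3, so a level of up to 1.66 FPKM was not detectable in P replicate 1.

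*Kifc1* encodes HSET, a minus-end motor that draws microtubules together at poles, and *Kifc5b* is a near copy of it. It was at 15.4, 17.4 and 6.65 FPKM across NP (13.1 ± 5.71) and 5.37, 9.51 and 34.5 in P (16.5 ± 15.7). Its log2 ratio was 0.01 (SE 1.14, limma adjusted p = 0.995), the 3rd highest among kinesins, and P replicate 3 alone was above the NP libraries. *Kifc5b* was at 5.84, 11.6 and 9.07 FPKM across NP and 0, 5.67 and 2.70 in P, with no overlap. P replicate 2 lay only just below NP replicate 1, and 3 reads in P replicate 1 would be 4.95 FPKM for *Kifc5b*.

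The transcripts of the *Kifc1* pair are 96.8% identical over 2312 bases, and how reads that match both were counted is not given in the sources used here, so the split between them is uncertain. Summed, they were at 21.3, 29.0 and 15.7 FPKM across NP (22.0 ± 6.65) and 5.38, 15.2 and 37.2 in P (19.2 ± 16.3), and the fractions overlapped.

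Among the transport kinesins *Kif17* stood highest, at 396, 507 and 330.1 FPKM across NP (411 ± 89.7) and 135, 79.3 and 787 in P (334 ± 394). P replicate 3 was above all NP libraries and the other P libraries were below them. That library held 78.6% of the *Kif17* signal of P, and the P mean was 107 FPKM without it. The log2 ratio was -0.99 (limma adjusted p = 0.502). *Kif17* and *Sh2d5* share 74 bases of exon on the same strand, and *Sh2d5* was above 0 only in NP replicate 2, at 6.84 FPKM.

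*Kifc3*, a minus-end motor of membranes and adherens junctions, was the next, at 123, 60.8 and 69.0 FPKM across NP (84.3 ± 33.9) and 81.2, 43.1 and 69.4 in P (64.6 ± 19.5). Its fractions overlapped. The conventional kinesin-1 heavy chains carry vesicles and organelles with the help of light chains. Only *Kif5c* among them passed the filter on low values, at 20.5, 9.33 and 10.5 FPKM across NP and 23.1, 1.47 and 2.98 in P. *Kif5b*, the heavy chain of most cell types, reached at most 1.20 FPKM, in NP replicate 1, and *Kif5a*, a neuronal one, was listed at 0.

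The kinesin-3 motors carry endosomes, vesicles and mitochondria. *Kif1b*, known for mitochondria and synaptic vesicle precursors, was at 3.30, 2.39 and 1.47 FPKM across NP (2.39 ± 0.914) and 9.01, 8.26 and 0.623 in P (5.97 ± 4.64). It was higher in P in 2 of 3 same-numbered pairs, and its log2 ratio of 0.69 (SE 1.23), the 2nd highest among kinesins, was not past the threshold (limma adjusted p = 0.780). *Kif13a* and *Kif13b*, both endosome and vesicle motors, were lower in P in each pair.

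*Kif13a* was at 7.41, 6.78 and 0.756 FPKM across NP and 0, 1.15 and 0 in P. *Kif13b* was at 20.5, 18.2 and 1.54 FPKM across NP and 19.6, 7.82 and 0 in P. *Kif16b*, a motor of early endosomes, was at 17.4, 12.3 and 0.683 FPKM across NP and 0.920, 3.96 and 2.04 in P. In all of these NP replicate 3 was the lowest NP library, and the fractions overlapped. *Kif1c* was at 0.0793 to 1.72 FPKM across NP and above 0 in P replicate 2 alone, at 0.482.

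KIF3A and KIF3B form the heterotrimeric kinesin-2 of cilia together with the adaptor KAP3, the product of *Kifap3*. *Kif3a* was at 11.9, 3.98 and 0.0460 FPKM across NP and 0, 4.15 and 0 in P. *Kif3b* was at 1.58, 9.50 and 0.0293 FPKM across NP and 0, 5.13 and 0 in P. Both motor subunits were thus above 0 in P replicate 2 alone among the P libraries, and *Kifap3* was at 7.05, 10.4 and 0 FPKM across NP and listed at 0 in all P libraries. For their lengths, 3 reads in P replicate 1 would be 5.11 FPKM for *Kif3a* and 3.25 for *Kif3b*. The *Kif3a* level of P replicate 2 would thus not have been detectable in P replicate 1.

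In the fit as reported, the 3 kinesins with the lowest log2 ratios were all in the third class. With a pseudocount of 5 the lowest was the spindle kinesin *Kif2c*, at -2.07. With a pseudocount of 0.1 the transport kinesin *Kif13a*, at -3.93, was among the lowest 3. *Kif9*, a motor of motile cilia and sperm, was at 42.5, 29.4 and 1.42 FPKM across NP (24.5 ± 21.0) and 0, 4.51 and 1.01 in P (1.84 ± 2.37), with a ratio of -2.73 (SE 1.34, limma adjusted p = 0.329, and 0.191 with the block). *Kif24*, a kinesin-13 that acts at centrioles, was at 50.6, 49.5 and 86.2 FPKM across NP (62.1 ± 20.9) and 20.6, 24.2 and 0.805 in P (15.2 ± 12.6), with a ratio of -2.62 (SE 1.13, limma adjusted p = 0.272, and 0.170 with the block). In *Kif24* all P libraries lay below all NP libraries, whereas in *Kif9* NP replicate 3 lay within the P libraries. With single libraries left out, the ratio of *Kif9* ran from -4.03 without NP replicate 3 to -1.95 without NP replicate 1. That of *Kif24* ran from -3.29 without P replicate 2 to -1.39 without P replicate 3.

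*Kif21b*, which limits microtubule growth in neurons, was at 15.2, 7.84 and 24.5 FPKM across NP (15.8 ± 8.35) and 3.39, 5.43 and 0 in P (2.94 ± 2.74). Its fractions did not overlap, and its ratio was -2.34 (SE 1.24, limma adjusted p = 0.357, and 0.250 with the block), or -2.88 without P replicate 2 and -1.54 without P replicate 3. The remaining detected members of the class, *Kif21a*, *Kif26a*, *Kif26b* and *Kif7*, were at or under 2.34 FPKM in every library and were not tested.

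Set side by side, spindle and transport kinesins had median shifts close to each other and to the whole table in the fit as reported. The median log2 ratio was -0.93 over the 12 spindle kinesins, -0.99 over the 9 transport kinesins, -2.62 over the 3 others and -1.03 over all 10578 genes. Taking libraries of the same number as pairs, the spindle median was -1.43, -0.86 and -0.37 and the transport median -1.37, -1.12 and -0.06, where all genes gave -1.29, -1.10 and -0.34. Without NP replicate 1 the spindle median was -0.24 and the transport median -0.62, beside -0.95 over all genes. Without NP replicate 3 they were -0.94 and -1.39, beside -1.34. The spindle, transport and all-gene medians were -1.18, -1.42 and -1.73 with a pseudocount of 0.1, and -0.36, -0.66 and 0 without a filter. With all 6 libraries, the spindle median minus the transport median was -0.06, 0.26 and -0.30 in the 3 pairs (mean -0.03 ± 0.28 SD, n = 3), so its sign varied between pairs.

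A ratio below 0 was found for 21 of the 24 tested kinesins, beside 80.1% of all genes, and the 3 above 0 were *Kif11*, *Kif1b* and *Kifc1*, beside 19.9%. *Kif13a*, *Kif15* and *Kif18a* passed the filter through NP alone, with P means of 0.383, 0 and 0.938 FPKM. The filter thus favoured a ratio below 0 for them, as for any gene that entered in this way. No kinesin entered through P alone. The signs of the ratios also follow the scaling of the libraries. The median of all genes moved from -1.03 to -0.37 with median-of-ratios scaling, to -0.43 with a common FPKM sum and to 0.0027 with quantile normalisation, and the number of kinesins above 0 was then 8 of 23 tested, 9 of 25 and 10 of 24. Set against the median over all genes, 11 of the 24 kinesins were higher, and *Kif11* stood 4.85 above it. Of the 24, 5 had every P library below every NP library (*Kif21b*, *Kif23*, *Kif24*, *Kif2c* and *Kifc5b*), beside 23.2% of all genes, and 11 were lower in P in all 3 pairs, beside 38.6%.

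**Figure D3:**
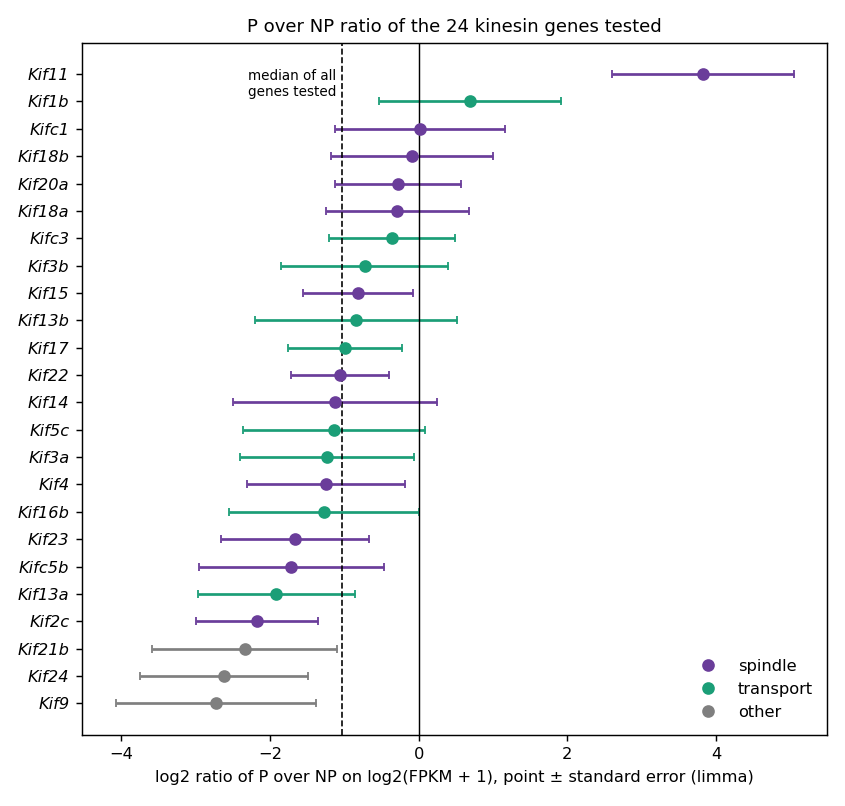
Log2 ratio of P over NP for the 24 tested kinesins, coloured by class, with bars of 1 standard error and a line at the median of all genes (-1.03). *Kif11*, at 3.82, stands apart from the other 23, which run from -2.73 to 0.69, and signs close to 0 change with the scaling of the libraries (8 to 10 of 23 to 25 tested kinesins lie above 0 after other scalings, 3 of 24 here).

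In summed level the spindle class supplied 63.8%, 65.2% and 59.1% of kinesin FPKM across NP replicates 1 to 3 and 65.5%, 72.9% and 38.5% in P. Transport kinesins supplied 30.7%, 30.5% and 32.1% in NP and 31.5%, 22.1% and 61.4% in P. P replicate 3 was the 1 library in which transport kinesins outweighed spindle kinesins. *Kif17* made up 56.0% of all kinesin FPKM there, and without this gene the spindle share was 79.5% to 86.4% in NP and 77.7% to 87.5% in P, so that P replicate 3 had the highest share. Without *Kif22* as well, it was 55.9%, 71.1% and 73.2% in NP and 64.3%, 65.2% and 80.8% in P, and P replicate 3 was again the highest.

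**Figure D4:**
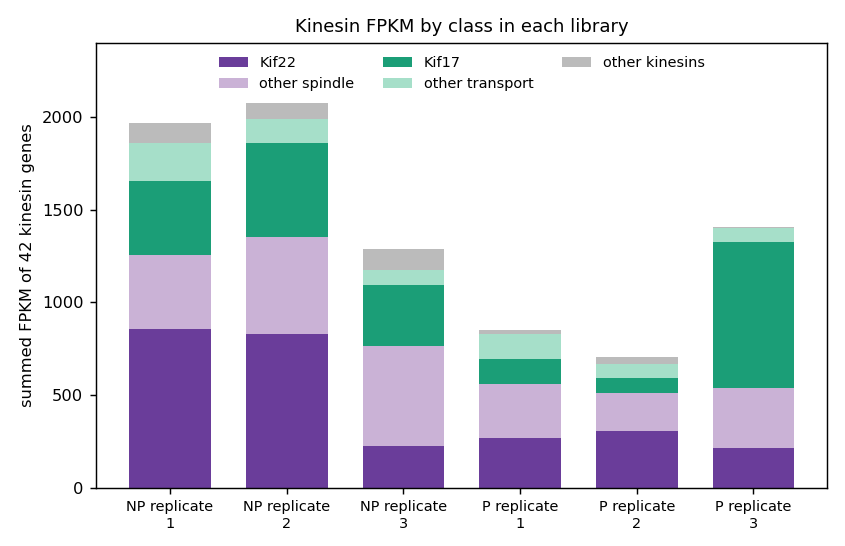
Summed FPKM of spindle, transport and other kinesins in each of the 3 NP and 3 P libraries, as stacked bars from 0, with *Kif17* and *Kif22* drawn apart from the rest of their classes. The sums run from 705 FPKM in P replicate 2 to 2075 in NP replicate 2, and in P replicate 3 *Kif17* alone supplies 56.0%.

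Kinesins work with adaptors and opposing motors, and these were read from lists of partner genes. Of 10 tested kinesin partners (light chains, mitochondrial and vesicle adaptors and *Kifap3*), all had a ratio below 0 (80.1% of all genes did), with a median of -1.75, and none passed limma's threshold with or without the block. *Kifap3*, *Klc1* and *Trak2* passed the filter through NP alone, with P means of 0, 0.359 and 0.863 FPKM, which favoured a ratio below 0. After the other scalings 2 to 3 partners lay above 0. *Klc1*, a kinesin-1 light chain, was at 19.3, 4.63 and 12.03 FPKM across NP and 0, 1.08 and 0 in P, with no overlap and a ratio of -3.16 (SE 1.18, limma adjusted p = 0.201, and 0.104 with the block).

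The other light chains were also measured. *Klc2* was at 28.3, 13.4 and 23.0 FPKM across NP and 10.3, 2.33 and 1.72 in P, *Klc3* at 76.2, 68.8 and 0.283 in NP and 53.6, 4.35 and 0.246 in P, and *Klc4* at 51.5, 3.88 and 0 in NP and 13.1, 0 and 0 in P. *Klc2* did not overlap between fractions, and the other 2 varied more within a fraction than between the fractions. *Cenpe*, the kinesin-7 that carries chromosomes at kinetochores, had a mean under 1 FPKM in both fractions.

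Of 22 tested genes of cytoplasmic dynein and dynactin, the minus-end motor that opposes kinesins, 5 were above 0 and 17 below (80.1% of all genes were below), with a median of -0.95, and 9 to 11 lay above 0 after the other scalings. *Dync1i1* and *Dctn6* had passed the filter through NP alone (P means 0 and 0.102 FPKM), which favoured a ratio below 0. None of the 22 passed the threshold without the block and 2 fell with it, where 6.27% of all genes did. *Dctn2*, the dynamitin subunit of dynactin, was at 132, 84.7 and 56.4 FPKM across NP and 12.7, 14.6 and 0.673 in P (limma adjusted p = 0.123, and 0.0474 with the block), and *Dctn5* had an adjusted p of 0.223 in limma and 0.0871 with the block.

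Of 13 tested spindle proteins that act with kinesins, 6 were above 0 and 7 below, with a median of -0.18 (all genes had 19.9% above 0 and a median of -1.03), and 9 to 11 lay above 0 after the other scalings. *Plk1*, the kinase that loads several mitotic kinesins, was at 682, 756 and 2085 FPKM across NP and 266, 225 and 436 in P, with a ratio of -1.78 that passed the threshold only with the block, as 6.27% of all genes did downwards (limma adjusted p = 0.0905, compared with 0.166 without it). *Tpx2*, which targets Eg5 to spindle microtubules, was at 15.0, 53.4 and 34.9 FPKM across NP and 23.5, 28.7 and 73.0 in P. Its fractions overlapped, unlike those of *Kif11*.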

How the data were processed

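RNA from the NP and P fractions was depleted of rRNA, amplified as whole-transcriptome cDNA and made into libraries without strand marking. Per the submitters' processing notes the tools were Trim Galore 0.4.1 for trimming and, for mapping to the GRCm38 assembly, HISAT2 2.0.5. The deposited values are FPKM that the authors computed in Seqmonk. The sources used here do not give the annotation release, the strand setting or the handling of multi-mapped reads. Amplification from few molecules and division by exon length and total both enter these values. Detection floors cover counting error only, and standard errors the spread between libraries after limma drew it towards that of genes at a similar level.

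The table held 25965 rows. For repeated symbols the row with the highest mean was kept, which removed 66 rows. Read depth was recovered as the step that made most low values whole, with GENCODE M21 exon lengths for 87.4% of genes. Recovered reads summed over genes were 1.10 to 2.25 times the recovered depth, and 13 of the 32 kinesins above 0 were whole in every library where they were listed above 0, so no count test was run.

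The comparison of P with NP used limma 3.58.1 (R 4.3.3, two-sided) on log2(FPKM + 1) with a trend of spread on level, for genes with a mean above 1 FPKM in either fraction, with Benjamini-Hochberg adjustment over all of them and a threshold of 0.1. The script was tested on simulated data. The study's methods state that every sample's gradient gave both an NP and a P library, so the fractions share the same 3 pools of 200 oocytes. The labels number the libraries of each fraction 1 to 3, and that equal numbers mark the same pool is not said in words. Deviations of same-numbered libraries correlated at 0.063, 0.099 and 0.116 and others at -0.089 to 0.021, the highest for each library being with its own number. The fit without a block, which ignores the shared pools, had been set as the main one, and the block is given beside it. P-values measure the spread between these libraries, with each gene's own spread drawn by limma towards that of genes at a similar level. Alternatives changed the pseudocount, filter, scaling, trend, block, threshold and libraries. Near copies were found with BLAST 2.17.0 and exon overlaps from GENCODE M21. Not every exon overlap is reported here. Named with values in each library are the kinesins with a mean above 1 FPKM in either fraction, with log2 ratio, standard error and adjusted p for those past the threshold in either fit and the 3 highest and 3 lowest ratios. The values given beyond these were chosen after they were seen. Kinesin classes, partner and marker lists and this rule were chosen with earlier results of these data known, among them those on *Kif11*, *Kif18a* and *Kif3b*.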

Additional observations from a re-analysis of the deposited data

How the results depend on the processing

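The count of kinesins past the threshold was 0 and became 1 (*Kif11*) with the replicate block, and it stayed at 0 under the other settings. Over 24 kinesins and 21 alternatives, 458 of 497 values kept their sign and their side of the threshold, 1 newly passed it and 38 changed sign. The pairing behind the block rests on the division of each pool of oocytes into NP and P and on equal numbers in the labels, and under it 668 genes passed, compared with 192 without it. The count over all genes was 69 with a pseudocount of 0.1, 1 without a filter on low values (1774 at an unadjusted p under 0.05), 3 with median-of-ratios scaling, 4 with quantile normalisation, 7 with a common FPKM sum, 15 without a trend and 65 at an adjusted p under 0.05. Leaving out single libraries gave 1 to 331 when the filter was applied anew and 0 to 55 on the genes of all 6, the highest in both without P replicate 3.

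The median over spindle kinesins was -0.36 without a filter, -0.060 with median-of-ratios scaling, 0.031 with quantile normalisation and -0.13 with a common sum, and -0.94 to -0.24 when a library was left out (to -0.20 on the genes of all 6), the highest without NP replicate 1. That over transport kinesins was -0.19, -0.0021 and -0.25 under the same 3 scalings, and -1.51 (without NP replicate 3) to -0.62 (without NP replicate 1) when a library was left out. With a pseudocount of 0.1 *Kifc1* had -0.0027 and *Kif18a* 0.17. With median-of-ratios scaling, quantile normalisation and a common sum, *Kif18b* had 0.88, 0.69 and 0.80, *Kif20a* 0.71, 0.82 and 0.65, *Kif18a* 0.31, 1.15 and 0.20, and *Kifc3* 0.63, 0.64 and 0.56. Quantile normalisation gave *Kif3b* 0.22, *Kif15* 0.082 and *Kif13b* 0.048, and median-of-ratios scaling gave *Kif17* 0.010. With a library left out, *Kif13b* ran from -1.84 to 0.41 and *Kif20a* from -0.50 to 0.088, above 0 without P replicate 3, and *Kif18a* from -0.90 to 0.13 and *Kif3b* from -1.60 to 0.17, above 0 without NP replicate 2. *Kif18b* ran from -1.13 to 0.49 (0.49 without P replicate 1, 0.37 without P replicate 2, 0.097 without NP replicate 1 and 0.32 without NP replicate 2), and *Kifc1* from -0.69 without P replicate 3 and -0.38 without NP replicate 3 to 0.55. Without changing sign, *Kif17* ran from -1.96 without P replicate 3 to -0.31 without P replicate 2, *Kif1b* from 0.23 without P replicate 1 to 1.54 without P replicate 3, *Kif22* reached -1.69 and *Kif23* -0.98 without NP replicate 3. The causes were not tested, except that a scaling moves all ratios by construction.

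The common FPKM sum, and leaving out a library while keeping the genes of all 6, were chosen after the data were seen. Where a library is left out, its fraction keeps 2. Classing *Kif2a* outside the spindle kinesins changed nothing, since it was too low to be tested. The shallow P replicate 1 limits what can be said of kinesins listed at 0 there.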
